A study of Mus musculus with 4 samples.

Results

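The genes for the protein part of the mitochondrial ribosome were compared between WT and Npac KO mouse embryonic stem cells (mESCs). The group was taken as every protein-coding gene whose symbol begins with Mrpl or Mrps followed by a number, which gave 78 genes of the 56748 listed, 49 named for the large subunit (Mrpl) and 29 for the small subunit (Mrps). Of these, 77 passed the filter on low counts that left 18157 genes in the test. The study sequenced RNA from E14 cells, a mouse ES cell line grown in the paper's methods without feeder cells in serum with LIF. There were 2 libraries of WT cells (WT1 and WT2) and 2 of cells with an Npac knockout made by CRISPR-Cas9 (KO1 and KO2), each KO library coming from its own KO line by the study's methods. The labels do not say whether WT1 and WT2 were separate cultures, so p-values measure the spread between these libraries, which may be partly technical.

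Mitochondria hold their own ribosome, which makes the few proteins encoded in mitochondrial DNA, all of them parts of the respiratory chain and the ATP synthase. Its rRNAs are transcribed inside the mitochondrion, whereas all of its proteins are encoded in the nucleus, made in the cytosol and imported. Many of these proteins descend from bacterial ribosomal proteins, and others were added during the evolution of mitochondria. The large subunit carries the peptidyl transferase centre and the exit tunnel, and the small subunit carries the decoding site.

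Total counts lay between 15850805 and 16965120 per library. Glyr1 (the symbol of Npac in the files, ENSMUSG00000022536) was at 259 and 178 CPM (read counts scaled to library size after TMM normalization) in WT1 and WT2 and at 47.9 and 51.3 CPM in KO1 and KO2, and its log2 fold change (log2 FC, KO over WT) was -2.14, with a fitted standard error (SE) of 0.23 and an adjusted p of 0.00174 by the quasi-likelihood test of edgeR. Of 8 markers of mESC identity, 1 fell (Zfp42), with a summed level of 5744 to 7054 CPM in WT and 4632 to 4890 CPM in KO libraries. Of 7 trophoblast markers, 5 were tested and 2 rose (Tfap2c and Krt18), and their sum was 104 to 112 CPM in WT and 239 to 265 CPM in KO libraries, while the defining gene Cdx2 had 0 and 3 reads in WT and 0 and 16 reads in KO libraries. Of 6 endoderm markers 5 were tested and 1 fell (Sox7), with a sum of 28.2 to 29.3 CPM in WT and 14.8 to 21.7 CPM in KO libraries. Sox7 alone went from 17.9 and 9.27 CPM in WT to 0.26 and 0.92 CPM in KO libraries. Gata4 and Gata6 were not called but had both KO libraries above both WT libraries, Dab2 had both below, and Sox17 overlapped. Of 7 fibroblast markers 3 were tested and 1 rose (Col1a1), with a sum of 35.8 to 59.1 CPM in WT and 45.1 to 50.7 CPM in KO libraries and with Dcn and Col3a1 at 0 reads in every library. By the rule given below, 11% of all genes tested rose and 10.7% fell. The part of these marker shifts in the results below was not tested.

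Mitochondrial ribosomal protein transcripts were more often higher than lower in the KO libraries. A gene was called where its adjusted p was below 0.05 and it changed by more than 1.5-fold, and by this rule 12 members rose (15.6% of the 77 tested), 1 fell (1.30%) and 64 did not pass. In bulk RNA, a change in the mix of cells and a change per cell cannot be told apart. Over all 18157 genes tested, 11% rose and 10.7% fell. The median log2 FC of the members was 0.31, against 0.0015 over all genes, with 62 members above 0 and 15 below. The WT libraries also differed for the members, with a median log2 difference of WT2 from WT1 of 0.18, against 0.0096 over all genes. Against the WT mean, the members' median log2 difference was 0.34 in KO1 and 0.27 in KO2. Both KO libraries lay above both WT libraries for 50 members, against 33.2% of all genes, and below both for 9 members, against 32.5% of all genes. At an unadjusted p under 0.05, 26 members were higher (33.8%, against 18.7% of all genes) and 2 lower (2.60%, against 18.8%). These 2 were Mrpl21 and Mrpl13, the latter picked out after its value was seen. DESeq2 called 11 members higher (14.3%, against 9.74% of the genes it tested) and Mrpl21 lower (1.30%, against 10%). The remaining 18 members overlapped between the groups. The count of members that rose was 14 without WT1 (18.2%, against 14.8% of all genes), 28 without WT2 (36.4%, against 19.1%), 2 without KO1 (2.60%, against 3.54%) and 5 without KO2 (6.49%, against 3.70%). Without KO1 the members were thus below the share of all genes, and Mrps24 and Mrpl45 were the 2 that passed in each of these fits. The count that fell was 2 without WT1, 1 without WT2 and 0 without KO1 or KO2, where 15.4%, 18.2%, 3.34% and 3.75% of all genes fell.

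**Figure D1:**
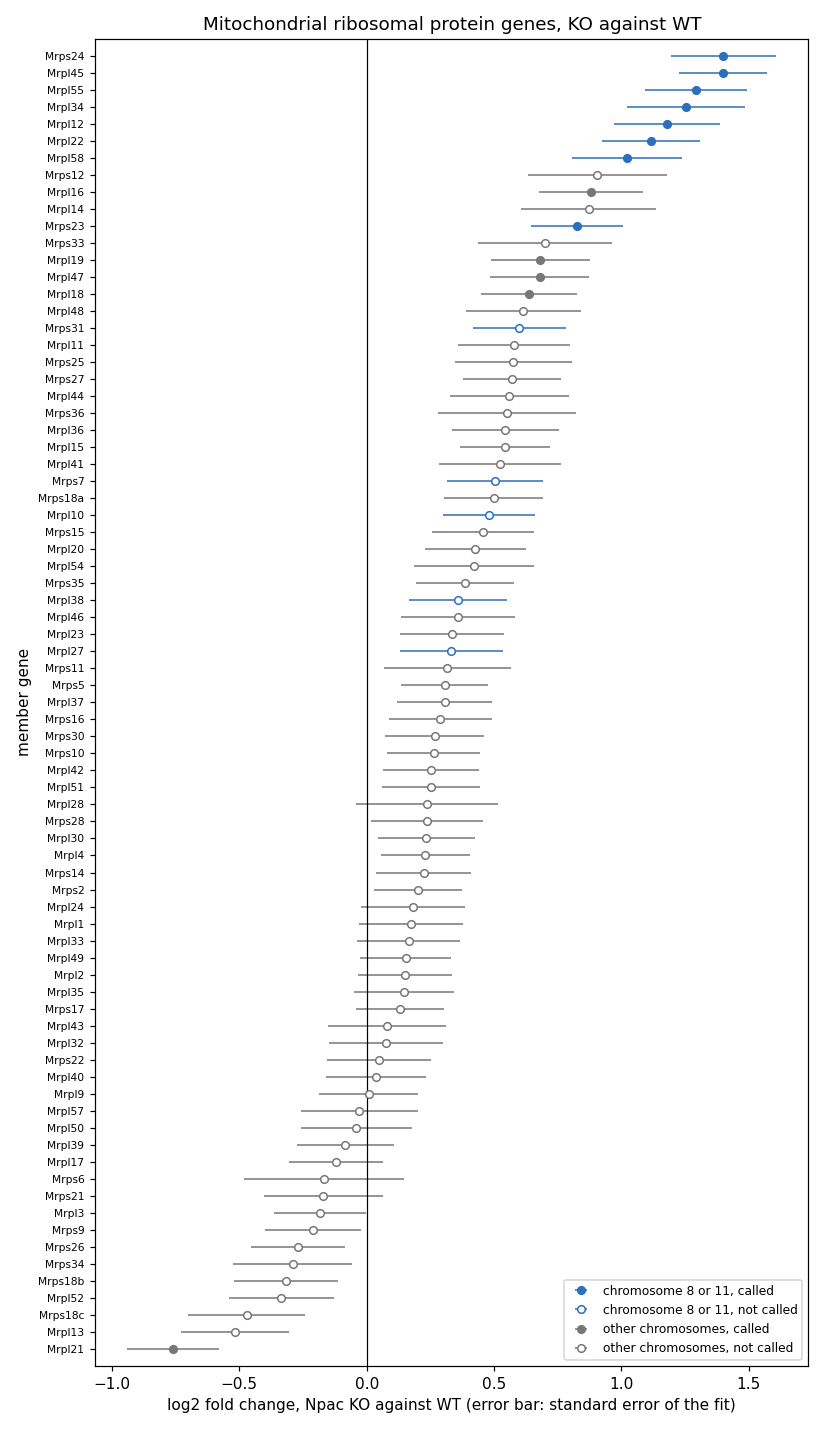
Log2 FC of KO against WT for each of the 77 tested members, in order of size, with the standard error of the fit as a horizontal bar. Filled points passed both thresholds and blue points lie on chromosome 8 or 11; the 7 members with the highest values, from 1.02 to 1.40, are all blue and filled, and Mrpl21 at -0.76 is the lowest.

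Of the 12 members that rose, 10 are named for the large subunit. Those named for the small subunit were Mrps24 and Mrps23. The members are given here from the largest log2 FC down, with positions as in the authors' files, whose coordinates differ from those of mm10, the build named in the processing notes.

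Mrps24 (ENSMUSG00000020477, chr11:5653983-5665680), the counterpart of a bacterial small-subunit protein at the entry of the mRNA channel, was at 42.0 and 55.3 CPM in WT1 and WT2 and at 137 and 120.4 CPM in KO1 and KO2. Its log2 FC was 1.40 (SE 0.21, adjusted p = 0.00517). Mrpl45 (ENSMUSG00000018882, chr11:97206542-97220746), a protein near the exit tunnel that ties the ribosome to the inner membrane, was at 73.7 and 70.7 CPM in WT and at 185 and 196 CPM in KO libraries. For this gene both replicate pairs were tight, and the log2 FC was 1.40 (SE 0.17, adjusted p = 0.00293). Mrpl55 (ENSMUSG00000036860, chr11:59093312-59096960) was at 21.5 and 22.8 CPM in WT and at 58.9 and 49.9 CPM in KO libraries, a log2 FC of 1.29 (SE 0.20, adjusted p = 0.00614). In all of these the lower KO library was well above the higher WT library, and Mrps24 differed more between the WT libraries than Mrpl45 or Mrpl55 did.

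Mrpl34 (ENSMUSG00000034880, chr8:71917603-71918391), a small basic protein of bacterial origin, was at 22.3 and 31.1 CPM in WT and at 69.5 and 58.2 CPM in KO libraries, with a log2 FC of 1.25 (SE 0.23, adjusted p = 0.0106). Mrpl12 (ENSMUSG00000039640, chr11:120375439-120379891), the stalk protein that recruits translation factors, was at 50.75 and 68.2 CPM in WT and at 143.5 and 126 CPM in KO libraries, with a log2 FC of 1.18 (SE 0.21, adjusted p = 0.00928). In Mrpl34 and Mrpl12, WT1 was the lowest library and KO1 the highest, and the groups did not overlap. Mrpl22 (ENSMUSG00000020514, chr11:58062487-58070391), which lines the exit tunnel, was at 24.75 and 28.1 CPM in WT and at 58.7 and 55.9 CPM in KO libraries, with a log2 FC of 1.12 (SE 0.19, adjusted p = 0.00869). Mrpl58 (ENSMUSG00000018858, chr11:115294578-115303500), also known as ICT1, a peptidyl-tRNA hydrolase within the large subunit that releases chains from stalled ribosomes, was at 24.55 and 30.2 CPM in WT and at 61.25 and 49.98 CPM in KO libraries, with a log2 FC of 1.02 (SE 0.22, adjusted p = 0.0157). The groups were again separate in both.

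The other members that rose changed by less than 2-fold. Mrpl16 (ENSMUSG00000024683, chr19:11747755-11752324), whose bacterial counterpart lies near the tRNA sites of the large subunit, was at 27.3 and 25.3 CPM in WT and at 52.95 and 43.85 CPM in KO libraries, with a log2 FC of 0.88 (SE 0.20, adjusted p = 0.0219). Mrps23 (ENSMUSG00000023723, chr11:88095214-88102333), a small-subunit protein without a bacterial counterpart, was at 38.1 and 40.5 CPM in WT and at 69.5 and 69.97 CPM in KO libraries, with a log2 FC of 0.83 (SE 0.18, adjusted p = 0.0177). Mrps23 had the closest pair of KO libraries among the members that rose. The 3 remaining genes lay just inside the threshold, at adjusted p-values of 0.0431 to 0.04905, and their groups did not overlap. With DESeq2 all 3 lost their call, at an adjusted p of 0.0541 for Mrpl19, 0.0539 for Mrpl47 and 0.0639 for Mrpl18. Mrpl19 (ENSMUSG00000030045, chr6:81934832-81942939) was at 29.5 and 27.1 CPM in WT and at 47.3 and 43.4 CPM in KO libraries (log2 FC 0.68, SE 0.19). Mrpl47 (ENSMUSG00000037531, chr3:32779546-32791754), at the exit tunnel, was at 27.3 and 29.65 CPM in WT and at 47.4 and 43.85 CPM in KO libraries (log2 FC 0.68, SE 0.19). Mrpl18 (ENSMUSG00000057388, chr17:13130236-13135232), of the central protuberance, was at 41.5 and 40.9 CPM in WT and at 69.8 and 58.5 CPM in KO libraries (log2 FC 0.64, SE 0.19).

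Just outside the threshold, Mrps12 had an adjusted p of 0.0512, Mrpl14 of 0.0520 and Mrps31 of 0.0525, with log2 FCs of 0.91, 0.87 and 0.60. With DESeq2, Mrps12 (adjusted p = 0.0227) and Mrpl14 (0.0344) were called. Mrpl14 and Mrps31 were picked out after their values were seen.

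The member that fell was Mrpl21 (ENSMUSG00000024829, chr19:3332901-3342837), a large-subunit protein of bacterial origin. It was at 85.7 CPM in both WT libraries and at 53.5 and 47.7 CPM in KO1 and KO2. The WT libraries were nearly equal and both KO libraries lay far below them, with a log2 FC of -0.76 (SE 0.18, adjusted p = 0.0232).

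**Figure D2:**
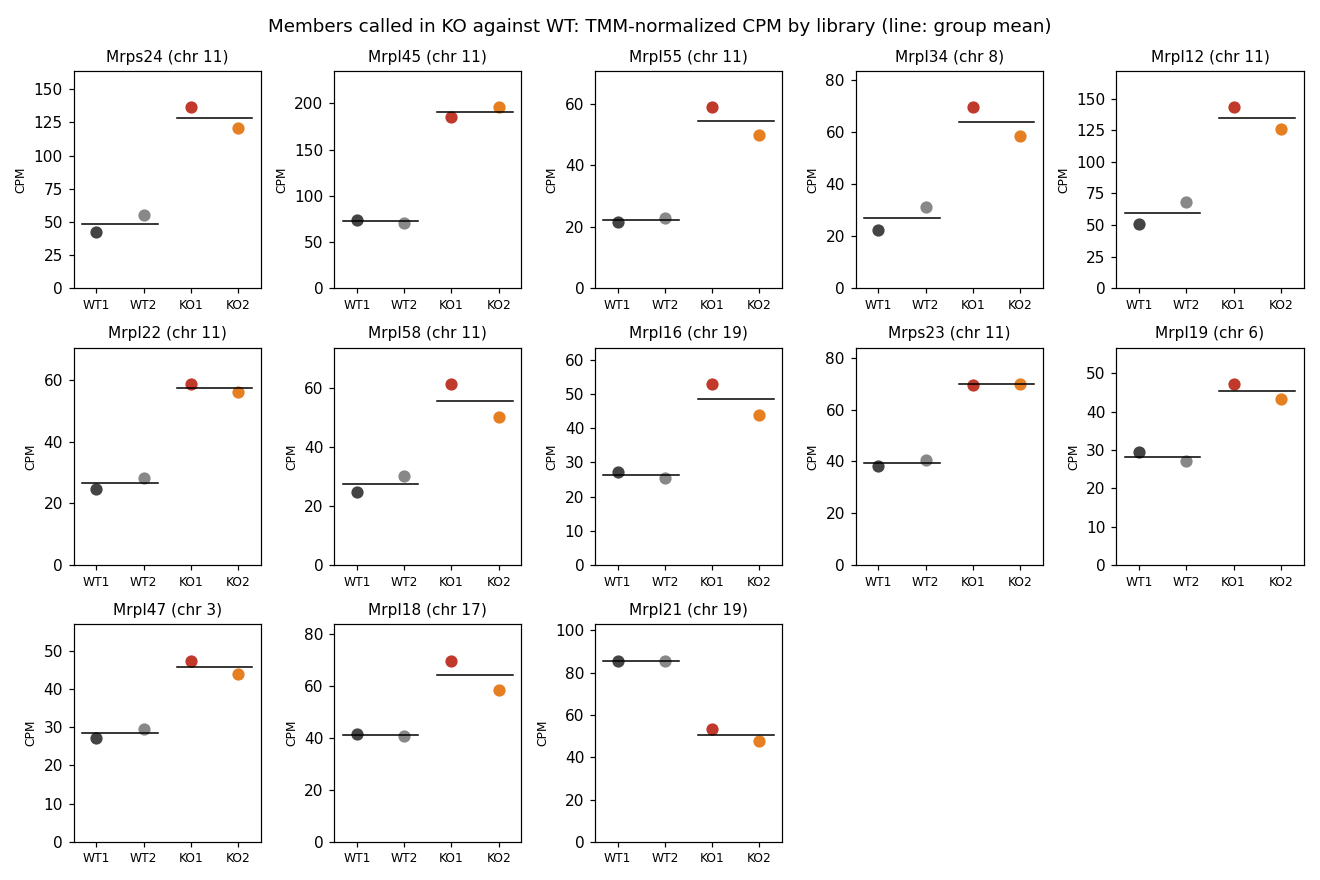
TMM-normalized CPM in each of the 4 libraries, from an axis that starts at 0, for the 13 members that passed both thresholds, with lines at the group means. In 12 panels both KO points lie above both WT points, and in the panel of Mrpl21 both lie below.

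The members that rose were not spread evenly over the 17 chromosomes that carry a tested member. On chromosomes 8 and 11 the KO libraries were raised as a whole, with a median log2 FC of 0.51 over the 979 tested genes of chromosome 8 and 0.50 over the 1455 of chromosome 11, while the medians of the other chromosomes with members lay between -0.19 and -0.01. These chromosomes carried 13 members, of which 8 rose (61.5%), against 26.5% of the genes tested there. For all 13 the KO libraries exceeded both WT libraries, against 60.6% of the genes there, and 0 fell, against 4.56%. Their median log2 FC was 1.02, against 0.50 for the genes there. On the other chromosomes 4 of 64 members rose (6.25%, against 8.61% of genes) and 1 fell (1.56%, against 11.7%). Their median was 0.24, against -0.07 for the genes on the same chromosomes, and 37 had the KO libraries above the WT libraries without overlap, against 28.9% of genes there, while 9 had them below, against 35.5%.

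When the median shift of each chromosome was removed from each KO library, 9 of the 77 tested members rose, of which 8 were among the 12. Mrpl14 was added, at an adjusted p of 0.0429. Those that no longer passed were Mrpl22 (adjusted p = 0.0508), Mrpl34 (0.0548), Mrpl58 (0.104) and Mrps23 (0.189), all on chromosome 8 or 11. In this fit 9.34% of all genes rose and 9.78% fell, and Mrpl21 was again the 1 member that fell. The median over all members was 0.33, and that of the 13 members on chromosomes 8 and 11 was 0.56. What raised these chromosomes was not tested.

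**Figure D3:**
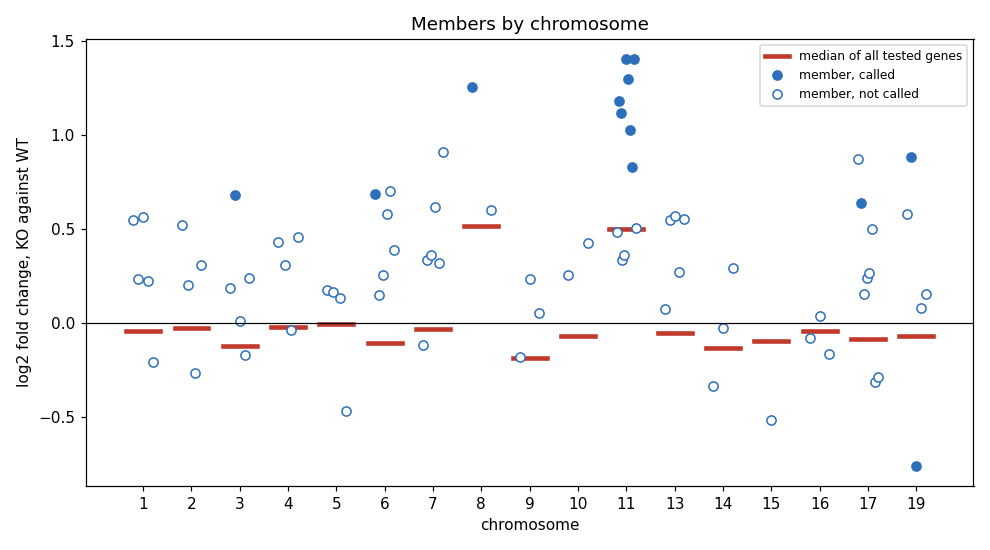
Log2 FC of each member (circles, filled where both thresholds were passed) by chromosome, with a red bar at the median of all genes tested on that chromosome. The red bars stand near 0.5 on chromosomes 8 and 11 and between -0.19 and -0.01 elsewhere, and 7 of the 11 members on chromosome 11 are filled.

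The subunits had similar median changes, and their sums changed by a similar fold. Of 48 tested Mrpl genes 10 rose (20.8%, against 11% of all genes) and 1 fell (2.08%, against 10.7%), with a median log2 FC of 0.32. Of 29 Mrps genes 2 rose (6.90%, below the share of all genes) and 0 fell, with a median of 0.29. At an unadjusted p under 0.05, 17 Mrpl genes were higher (35.4%) and 2 lower, and 9 Mrps genes were higher (31.0%) and 0 lower, against 18.7% and 18.8% of all genes. The summed level of the Mrpl genes was 2334 and 2655 CPM in WT1 and WT2 and 3304 and 3043 CPM in KO1 and KO2, that is 1.27-fold higher in KO. The summed level of the Mrps genes was 1127 and 1252 CPM in WT and 1529 and 1497 CPM in KO libraries, also 1.27-fold higher. Both KO sums lay above both WT sums in each subunit, and the two-sided exact permutation test gave p = 0.33 for each, the smallest that 2 libraries against 2 allow. The ratio of the large to the small sum was 2.07 and 2.12 in WT and 2.16 and 2.03 in KO libraries, so the groups overlapped (p = 1.00, exact permutation test). The members on chromosomes 8 and 11 summed to 563 and 649 CPM in WT and to 1175 and 1111 CPM in KO libraries, which is 1.89-fold higher, and the other members to 2898 and 3258 CPM and to 3658 and 3430 CPM, which is 1.15-fold higher.

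**Figure D4:**
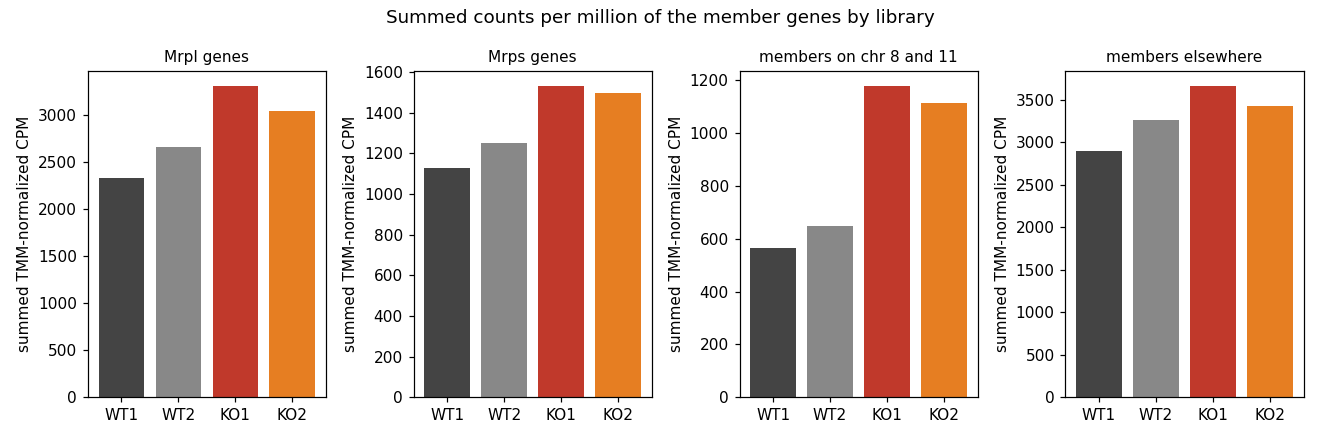
Summed TMM-normalized CPM in each library for the Mrpl genes, the Mrps genes, the members on chromosomes 8 and 11 and the members elsewhere, as bars from 0. Both KO bars are above both WT bars in every panel, by 1.27-fold for the Mrpl and the Mrps genes, 1.89-fold on chromosomes 8 and 11 and 1.15-fold elsewhere.

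Symbols do not always match the subunit in which a protein sits. Mrps30 and Mrps18a are placed in the large subunit in structures of the mammalian ribosome, and Mrps36 is now assigned to the 2-oxoglutarate dehydrogenase complex. Sorted this way, 10 of 50 large-subunit genes rose (20%, against 11% of all genes) and 1 fell (2%, against 10.7%). Of 26 small-subunit genes 2 rose (7.69%, below the share of all genes) and 0 fell. Of 46 members classed as having a bacterial counterpart 9 rose (19.6%) and 1 fell (2.17%), with a median log2 FC of 0.28. Of 30 classed as without one 3 rose (10%) and 0 fell (median 0.33), where 11% of all genes rose and 10.7% fell. This sorting puts Mrps18a and Mrps18b among those without a counterpart and their paralog Mrps18c among those with one, so it is approximate. None of these paralogs was called. Whether these classes differ was not tested.

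The landmark genes named for the small subunit did not pass. Mrps12, the decoding-site protein, was at 21.2 and 36.6 CPM in WT and at 56.55 and 52.0 CPM in KO libraries, and its WT libraries differed from each other by a log2 value of 0.77, one of 4 members in which this difference exceeded 1.5-fold. Mrps16, Mrps22 and Mrps34, each a known disease gene of mitochondrial translation in people, had log2 FCs of 0.29, 0.05 and -0.29 (adjusted p = 0.334, 0.886 and 0.403). In Mrps22 the libraries of both groups were interleaved, with 31.8 and 37.7 CPM in WT and 34.2 and 37.8 CPM in KO libraries. The Mrps18 paralogs, related proteins that occupy separate places in the ribosome, differed in sign, with log2 FCs of 0.50 for Mrps18a, -0.32 for Mrps18b and -0.47 for Mrps18c, and SE values of 0.19, 0.20 and 0.23. Mrps18a had its KO libraries above the WT pair and the others had theirs below it, but the adjusted p was 0.103, 0.291 and 0.178. Mrps30 was at a log2 FC of 0.27 (adjusted p = 0.354) and Mrps36 at 0.55 (adjusted p = 0.179).

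Among large-subunit landmarks, Mrpl11, which forms the base of the stalk, was at 37.3 and 38.35 CPM in WT and at 65.8 and 47.3 CPM in KO libraries, with a log2 FC of 0.58 (adjusted p = 0.0950). Mrpl44, which carries an RNase III-like fold, was at 29.8 and 23.1 CPM in WT and at 43.6 and 34.4 CPM in KO libraries, with a log2 FC of 0.56 (adjusted p = 0.122). In both genes KO1 was the highest library and the groups did not overlap.

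Levels of different genes were compared per gene length as the FPKM values of the authors' files. The 77 members with reads ranged 27.2-fold, from 3.14 to 85.5 FPKM in the WT mean, with a median of 15.9 FPKM in WT and 18.7 FPKM in KO libraries. FPKM divides by the listed gene length, which ran from 607 bases (Mrpl34) to 8631 bases (Mrps35), so the order below depends on it. The highest WT means were those of Mrpl2 (85.5 ± 2.61 FPKM, SD, n = 2), Mrpl28 (72.8 ± 29.6), Mrpl52 (59.0 ± 9.04), Mrpl24 (52.8 ± 11.55) and Mrpl34 (43.7 ± 10.1). Mrpl28 differed most between the WT libraries, at 51.9 and 93.7 FPKM, so that its place among these is not resolved, and Mrpl52, Mrpl24 and Mrpl34 lay within their combined spread of each other. Next below, Mrpl21 (42.3 ± 0.06) and Mrpl10 (42.25 ± 4.29) were within the SD of Mrpl34. Of the 5 highest, only Mrpl34 rose. Mrpl2, Mrpl28, Mrpl52 and Mrpl24 had log2 FCs of 0.15, 0.24, -0.34 and 0.18, with adjusted p-values of 0.271 to 0.592. The lowest WT means among members with reads were those of Mrpl48 (3.14 ± 0.65 FPKM), Mrps35 (3.96 ± 0.03), Mrps30 (4.57 ± 0.25) and Mrpl19 (5.15 ± 0.31). Of these, only Mrpl19 rose, to 8.23 ± 0.58 FPKM in KO. Across members the log2 mean FPKM in WT and KO correlated at 0.914 (Pearson), a description over 77 genes that share libraries and gene lengths. With a mean of 104 ± 14.1 FPKM in KO, Mrpl34 stood above Mrpl2 (94.6 ± 13.9), within their spread.

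**Figure D5:**
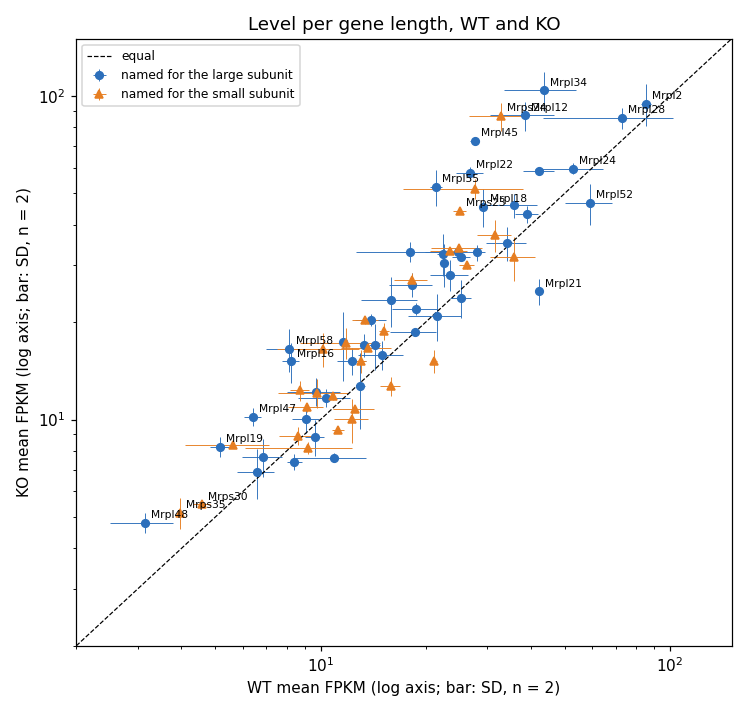
Mean FPKM of each tested member in WT (x axis) and KO (y axis), both log axes, with SD bars (n = 2) and a dashed line of equality; circles are Mrpl and triangles Mrps genes. The points run along the line over a 27.2-fold range, 62 of the 77 lie above it, and Mrpl21 is the labelled point below it that passed both thresholds.

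Mrpl53 (ENSMUSG00000030037, chr6:83086021-83086920) was listed at 0 reads in all 4 libraries, where a count of 0 allows up to 3 reads. Its whole span lies in that of Gm42688, a protein-coding gene on the same strand, which held 7 and 17 reads in WT and 5 and 9 reads in KO libraries. How reads shared by overlapping genes were assigned is not given in the sources used here, so the level of Mrpl53 is unknown.

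Of the 13 called members 6 overlap a tested gene. Mrps24 shares its strand with Urgcp, which rose by a log2 FC of 1.54 (adjusted p = 0.00944). Mrpl21 lies opposite Ighmbp2, a helicase gene, which fell with a log2 FC of -1.08 (adjusted p = 0.0194). Mrpl47 lies opposite Actl6a, which rose by 0.92 (adjusted p = 0.0216). The partners of Mrpl18 (Tcp1), Mrpl19 (Gcfc2) and Mrpl58 (Ict1os) did not pass. Use of strand in the counting is not stated, so reads in these overlaps could belong to either gene. Processed pseudogenes, near-identical copies without introns, were matched for 25 members (47 copies), and with their reads added 12 members still rose and 1 fell.

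Promoters of these genes are known to carry sites for NRF1, ETS-family factors such as GABP, and YY1, which drive nuclear genes for mitochondrial proteins. RefSeq promoter sequences of build GRCm38.p6, from 250 bases before the start to 50 after it, were found for 69 members by symbol. Exact matches on either strand were counted once per gene, in members and in all 16770 protein-coding genes with a promoter, and none of the motifs searched contains another. AAGATGGC (YY1) was in 12 members, 17.4% against 3.61% of genes. CCGGAAGT (ETS) was in 12 members, 17.4% against 5.87%, and GCATGCGC (NRF1) was in 8 members, 11.6% against 4.09%. CACGTG (an E-box) was in 7.25% of members against 9.14% of genes, and TATAAA in 7.25% against 14.6%. A match is a description of letters and not a bound site.

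Of the 12 YY1 matches 11 are shown, because this motif had the widest gap between members and all genes. The members that hold one had log2 FCs of 0.07 to 1.40. Each line gives 30 bases of the gene's strand, 5′ to 3′, with the match in capitals; in 8 the motif is on the gene's strand after the start, and since its letters include ATG it may overlap a start codon there, which was not checked. In the other 3 it is reversed and lies before the start.
Mrps24 (chr11:5707652-5707681, minus strand): cgggtcgcgccggcccAAGATGGCgtggtc
Mrps27 (chr13:99344789-99344818, plus strand): tggtgcgctccAAGATGGCggctcccatgg
Mrpl36 (chr13:73330968-73330997, plus strand): cgtgaccttacGCCATCTTtcttcctggcg
Mrps7 (chr11:115604147-115604176, plus strand): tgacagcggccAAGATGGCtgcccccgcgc
Mrps18a (chr17:46111004-46111033, plus strand): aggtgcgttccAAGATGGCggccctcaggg
Mrps11 (chr7:78783013-78783042, plus strand): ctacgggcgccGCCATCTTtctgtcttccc
Mrpl37 (chr4:107066822-107066851, minus strand): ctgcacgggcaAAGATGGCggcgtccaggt
Mrpl42 (chr10:95501904-95501933, minus strand): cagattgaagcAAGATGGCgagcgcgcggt
Mrpl49 (chr19:6057721-6057750, minus strand): gttgaggcgccAAGATGGCagcagcggtgt
Mrpl35 (chr6:71823743-71823772, minus strand): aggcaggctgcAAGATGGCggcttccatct
Mrpl32 (chr13:14613258-14613287, minus strand): cgcgctctGCCATCTTtacccggaaagtcg

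The lines run from the highest log2 FC (Mrps24) to the lowest (Mrpl32), and Mrps24 was the only one of the 12 members with a match to pass both thresholds. The median log2 FC was 0.41 in the 12 members and 0.27 in the others with a promoter. It was 0.12 in the 12 members with an ETS match against 0.31 without, and 0.04 in the 8 with an NRF1 match against 0.31 without. It was 0.31 in the 5 members with an E-box against 0.29 without, and 0.62 in the 5 with TATAAA against 0.27 without, of which 2 rose. Values in the TATAAA set ran from 0.13 to 1.40, the highest being that of Mrps24 on chromosome 11. These medians take no account of chromosome, and whether members with and without a motif differ was not tested. The ETS and NRF1 sets each held 1 member that rose, Mrpl18 with an ETS match and Mrpl22 with an NRF1 match, both shown here with the match in capitals.
Mrpl18 (chr17:12916312-12916341, minus strand): actgaaaacgCCGGAAGTagggggctgcgg
Mrpl22 (chr11:58171620-58171649, plus strand): ggcctcggactGCGCATGCgtatagtcagc

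Of 9 tested genes for nuclear regulators of mitochondrial genes, 2 rose (22.2%, against 11% of all genes) and 1 fell (11.1%, against 10.7%). Yy1 itself fell, from 194 and 176 CPM in WT to 115 and 124 CPM in KO libraries (log2 FC -0.63, SE 0.18, adjusted p = 0.0400, and 0.0678 with chromosome medians removed). Nrf1 was at 98.5 and 86.4 CPM in WT and at 66.1 and 59.0 CPM in KO libraries (log2 FC -0.56, adjusted p = 0.0635), and Gabpa, the DNA-binding subunit of GABP, was at a log2 FC of 0.03 (adjusted p = 0.944). Nrf1 and Gabpa were picked out because their motifs were searched. Pprc1, a coactivator of the PGC-1 family, rose from 129 and 99.8 CPM to 282 and 239.7 CPM (log2 FC 1.19, adjusted p = 0.00869). Mycn, a growth-promoting transcription factor, rose from 40.9 and 37.0 CPM to 122 and 84.5 CPM (log2 FC 1.41, adjusted p = 0.00697). The KO libraries of both rising genes lay above both WT libraries, and those of Yy1 and Nrf1 below.

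The rest of the mitochondrial translation machinery changed in both directions. Over 74 genes for other ribosomal components, assembly, translation, tRNA charging and transcription, 11 rose (14.9%, against 11% of all genes) and 3 fell (4.05%, against 10.7%), with a median log2 FC of 0.14. These counts depended on the libraries used. With a KO library left out fewer genes passed and with a WT library left out more did, here and over all genes alike. Of 5 ribosomal proteins with other symbols, Gadd45gip1 on chromosome 8 rose, from 19.1 and 15.9 CPM in WT to 47.3 and 39.4 CPM in KO libraries (log2 FC 1.31, adjusted p = 0.00831). It is 20% of this list, and 0 fell.

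Of 27 genes for ribosome assembly and rRNA modification 6 rose (22.2%, against 11% of all genes) and 2 fell (7.41%, against 10.7%), and with chromosome medians removed 4 rose and 0 fell. Grsf1, an RNA-binding protein of mitochondrial RNA granules, was at 58.7 and 59.35 CPM in WT and at 210.4 and 173.5 CPM in KO libraries. Its KO libraries were far above a nearly equal WT pair, with a log2 FC of 1.70 (SE 0.19, adjusted p = 0.00193). Mrm1 (an rRNA methyltransferase, chromosome 11) and Rbfa (a small-subunit assembly factor) rose by 0.91 and 0.81, with adjusted p-values of 0.0287 and 0.0454, and Mrm1 had an adjusted p of 0.203 with chromosome medians removed. Ybey, an endoribonuclease needed for small-subunit assembly, was lower at 5.15 and 4.62 CPM in KO than at 11.1 and 10.25 CPM in WT libraries (log2 FC -1.12, adjusted p = 0.0431, and 0.0562 with chromosome medians removed).

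Of 15 translation factors 2 rose (13.3%, against 11% of all genes) and 0 fell, against 10.7%. Tufm, the elongation factor that delivers aminoacyl-tRNA, went from 59.5 and 86.0 CPM to 187 and 177 CPM (log2 FC 1.32, adjusted p = 0.00767). Gfm1, the translocating elongation factor, went from 73.3 and 65.8 CPM to 123 and 107 CPM (log2 FC 0.73, adjusted p = 0.0286). In both the groups did not overlap. Of 20 mitochondrial aminoacyl-tRNA synthetases Vars2 rose (log2 FC 0.89, adjusted p = 0.0370) and Rars2 fell (-0.94, adjusted p = 0.0158). Each is 5% of the list, below the shares of all genes. Of 7 genes for mitochondrial transcription Tefm, an elongation factor on chromosome 11, rose by 1.71 (adjusted p = 0.00641). It is 14.3% of the list, against 11% of all genes, and 0 fell.

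The rRNAs of the mitochondrial ribosome did not rise in the KO libraries. mt-Rnr2, the large-subunit rRNA, was at 296 and 426.5 CPM in WT and at 109 and 84.3 CPM in KO libraries. Both KO libraries were far below, with a log2 FC of -1.90 (SE 0.25, adjusted p = 0.00334). mt-Rnr1, the small-subunit rRNA, was at 250.2 and 258 CPM in WT and at 111 and 210.4 CPM in KO libraries, with a log2 FC of -0.66 (adjusted p = 0.137), and the KO libraries differed from each other more than KO2 differed from WT. How rRNA was treated in library preparation is not given in the sources used here, and rRNA counts depend on it. Of the 12 tested protein genes of mitochondrial DNA 1 rose and 1 fell (8.33% each, against 11% and 10.7% of all genes). Their median log2 FC was 0.04, but the KO libraries lay on opposite sides of the WT mean, with a median log2 difference of 0.47 in KO1 and -0.49 in KO2.

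Relative to the sums of cytosolic ribosomal protein genes and of nuclear respiratory chain genes, the members were higher in the KO libraries. The sum of member CPM over the sum of the 84 cytosolic ribosomal protein genes was 0.0439 and 0.0438 in WT and 0.0589 and 0.0649 in KO libraries, 1.41-fold higher. Over the sum of nuclear respiratory chain genes it was 0.316 and 0.307 in WT and 0.354 and 0.359 in KO libraries, 1.14-fold higher. Neither ratio overlapped between the groups (exact permutation p = 0.33, the smallest possible). Both denominators did overlap. The cytosolic sum was 78853 and 89291 CPM in WT and 82106 and 69996 CPM in KO libraries. The respiratory chain sum was 10956 and 12715 CPM in WT and 13647 and 12664 CPM in KO libraries. Of the cytosolic ribosomal protein genes 5 rose (5.95%) and 7 fell (8.33%), with a median log2 FC of -0.18, and of 95 tested respiratory chain genes 9 rose (9.47%) and 1 fell (1.05%), with a median of 0.14, where 11% of all genes rose and 10.7% fell. With chromosomes 8 and 11 left out of both sums, a choice made after the data were seen, the ratio of members to cytosolic ribosomal protein genes was 1.32-fold higher in KO and the ratio to respiratory chain genes 1.05-fold higher.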

How the data were processed

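RNA-seq of 2 WT and 2 Npac KO libraries was used. The authors deposited raw read counts per gene and FPKM values made from the same counts. The processing notes name CASAVA, HISAT2 2.0.5, featureCounts 1.5.0-p3 and mm10, and the strand setting is not given in the sources used here. Of 52073 genes matched by ID to GENCODE M21 (GRCm38), 1485 had the same start, so coordinates are printed as deposited and were not joined to RefSeq promoters. The count test was edgeR 4.0.16 in R 4.3.3 (TMM, filterByExpr, quasi-likelihood test, Benjamini-Hochberg adjustment over 18157 genes), and the standard error is the log2 fold change divided by the square root of F. The common biological coefficient of variation was 0.235. Tested members had 165 to 3394 reads per library, which gave standard errors of 0.17 to 0.31 on the log2 scale. The fit was tested on simulated data. Alternatives used DESeq2 1.42.0, limma 3.58.1 on FPKM (pseudocounts 1 and 0.1), other scaling factors and filters, a replicate block and each library left out. Removed chromosome medians were also tried. Pseudogenes were matched by blastn 2.17.0+ (at least 90% identity, at least 60% coverage). Named genes are all called members, the 5 with the highest and the 5 with the lowest WT FPKM, landmark members, and up to 4 called genes per list. Members and lists were chosen with earlier results of these data known. 1 promoter sequence is not reported here.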

Additional observations from a re-analysis of the deposited data

How the results depend on the processing

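Rising members numbered 10 to 14 under DESeq2, other scaling factors and filters, FPKM with limma-trend, protein-coding genes alone, no fold threshold and added pseudogenes. With the replicate block 18 of the 77 rose, where 17.2% of all genes rose. With chromosome medians removed 9 of the 77 rose, where 9.34% of all genes rose. With members on chromosomes 8 and 11 left out, 4 members rose (6.25%, against 8.61% of genes on the other chromosomes). With each library left out they numbered 2 to 28, and those that fell 0 to 2. In the fits with 1 library in a group, that library was assumed to vary like the other group. Over all genes, leaving out a library gave 642 to 3477 that rose and 606 to 3311 that fell, and the block gave 3128 and 2994. Same-numbered libraries deviated together (r = 0.345 across genes), but WT and KO libraries share only a number; all 12 rising members were also called with the block. The other translation genes that rose numbered 2 to 15 and those that fell 0 to 8 with a library left out; those that fell numbered 1 with upper-quartile factors, with FPKM at pseudocount 1 and with chromosome medians removed, and 7 with the replicate block. The log2 change of the large to small ratio was 0.0007, from -0.044 to 0.045 with a library left out and -0.032 without members on chromosomes 8 and 11. The median log2 fold change of members was 0.22 to 0.39 with a library left out. With a library left out, signs turned for 13 of the 77 members, among them Mrpl2 (-0.012 to 0.28), Mrpl28 (-0.16 to 0.73), Mrpl24 (-0.056 to 0.43) and Mrps22 (-0.097 to 0.18). Of the planned settings other than left-out libraries, Mrpl18 and Mrpl19 lost their call in 3 of 10 and Mrpl47 in 4 of 10. The causes were not tested. With 2 libraries a group, the exact permutation test over libraries cannot go below p = 0.33.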

Other observations

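Among 12 genes listed for mitochondrial stress, 6 fell (50%) and 2 rose (16.7%) in KO against WT by the same edgeR test. Over all genes 10.7% fell and 11% rose. The list holds stress-induced regulators as well as genes for mitochondrial chaperones and proteases. Whether a mitochondrial stress response changed was not tested. The 4 with the largest changes are given first. Atf5, a transcription factor of the mitochondrial unfolded protein response, was at 151 and 121 CPM in WT and at 6.05 and 13.8 CPM in KO libraries (log2 FC -3.77, adjusted p = 0.00133). Chac1, a glutathione-degrading enzyme, was at 234 and 136 CPM in WT and at 1.80 and 17.5 CPM in KO libraries (log2 FC -4.25, adjusted p = 0.0121), and the KO libraries differed strongly from each other. Trib3 and Ddit3, stress-induced regulators, had log2 FCs of -2.91 and -2.68 (adjusted p = 0.00453 and 0.0110). In each of these the KO pair lay below the WT pair. The other genes that fell were Atf4 (log2 FC -1.19, adjusted p = 0.0125) and Hspa9 (-0.81, adjusted p = 0.0302). The genes that rose were Hspd1 (log2 FC 0.84, adjusted p = 0.0197), a mitochondrial chaperonin, and Clpp (0.91, adjusted p = 0.0157), a mitochondrial protease. Hspe1 (log2 FC -0.20), Lonp1 (0.23), Clpx (-0.11) and Asns (-0.57) did not pass. Atf4, Hspa9, Hspd1, Clpp and those that did not pass were named after their values were seen.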
